A study of Mus musculus with 18 samples.

Results

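Brown adipose tissue (BAT) was compared with mesenteric white adipose tissue (mWAT) from mice kept at 6 °C, using the 3 arrays whose titles name brown adipose at 6 degrees and the 3 arrays whose titles name mesenteric white adipose at 6 degrees, 6 of the 18 arrays of the series. The mice were females of the Sv129 strain, 10 weeks old, caged singly and exposed to 6 °C for 10 days. The BAT was the interscapular pad and the mWAT the fat along the gut. For a second temperature, the same depots of mice exposed to 28 °C for 10 days, with 3 arrays each, were compared in the same way. All groups shared strain, sex and age, and the labels name no transgene or drug. RNA was amplified with the NuGEN Ovation kit before hybridization, and each value is the intensity of an Affymetrix probe set, given here on the log2 scale. The tissue and temperature fields of the labels contradict the titles on these arrays, and the groups follow the titles. The labels do not say which arrays came from 1 mouse. The p-values rest on the spread between arrays within groups, pooled over all 18 arrays of the series.

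Brown fat burns fatty acids in mitochondria whose inner membrane is made leaky to protons by UCP1, so that respiration gives heat in place of ATP. Noradrenaline from sympathetic nerves drives this through cAMP, which releases fatty acids from the many small lipid droplets and raises transcription of Ucp1 and of the coactivator PGC-1α. Mesenteric fat stores triglyceride in large droplets, hangs in a sheet of mesothelium, and carries the nerves, blood vessels, lymphatic vessels and lymph nodes of the gut.

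The titles were checked against the defining genes of each depot. Ucp1 read 14.39, 14.31 and 14.40 (log2 intensity) on the BAT arrays and 9.57, 10.15 and 8.76 on the mWAT arrays. Zic1, a transcription factor of interscapular brown fat, read 9.85, 9.93 and 9.84 on the BAT arrays against 2.50, 2.50 and 2.82. Upk3b, a mesothelial uroplakin, read 7.14, 6.25 and 5.98 on the BAT arrays and 12.19, 11.82 and 12.75 on the mWAT arrays. No array of one group overlapped with the other for these genes, in the direction of the titles. Adipoq, the adiponectin gene, was near the top of the scale in both depots, at 13.53, 13.50 and 13.53 in BAT and 13.50, 13.53 and 13.71 in mWAT.

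Some features of single arrays bear on what follows, and the arrays are numbered in the order of the series. The mWAT array 3 stood apart: it correlated at 0.952 and 0.965 over all probe sets with the other mWAT arrays at 6 °C, which correlated at 0.982 with each other, and at 0.991 with array 3 of mWAT at 28 °C. The mean of 19 T cell genes was 6.21 on it, against 10.26 and 10.22 on the other mWAT arrays. The mean of 15 pancreas genes was 13.04 on mWAT array 2 and 9.81 on BAT array 3, against 5.15 to 6.25 on the other 4 arrays. The mean of 24 skeletal muscle genes was 9.40 on BAT array 2 and 7.20 and 7.79 on the other BAT arrays, against 6.23 to 6.56 in mWAT. The 3 BAT arrays correlated at 0.985 to 0.987 with one another, and BAT with mWAT arrays at 0.893 to 0.922. In bulk tissue, fewer cells of a type and less RNA per cell cannot be told apart.

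The depots differed widely. Of 45037 probe sets, 9171 were higher in BAT and 6662 lower at an adjusted p below 0.01, which is 20.4% and 14.8%. With 1 probe set for each of 18193 genes, the one of highest mean over all arrays, 21.3% of genes were higher in BAT and 18.9% lower. The arrays of the groups did not overlap at 55.5% of probe sets. More probe sets were higher in BAT, but the large differences lay the other way: 204 probe sets were called higher in BAT by at least 8-fold and 817 lower, and by at least 16-fold the counts were 76 and 241. The median log2 difference, BAT minus mWAT, was 0.15 over all probe sets and 0.10 over genes, and list medians are to be read against the latter. The higher share of the calls was 57.9%, and 72.5% where each array was centred on its median, which moved the median difference to 0.35. A difference of 1 on the log2 scale is a 2-fold difference. The median log2 intensity of an array was 6.97 to 7.20, and where a group lay below it the size of a difference is not exact.

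The 15 probe sets furthest above mWAT, 1 a gene, held genes of lipid metabolism, of muscle-type oxidation and of secreted proteins. Slc27a2, a very long chain acyl-CoA synthetase, read 12.86, 12.50 and 12.84 in BAT and 4.18, 4.01 and 5.33 in mWAT, a log2 difference of 8.23 (SE 0.34, adjusted p = 2.3e-09) or 299-fold. Zic1 followed at 7.27, and Bmp8b, a secreted factor of the BMP family, at 7.20 on the probe set of largest change. Cpn2, the regulatory subunit of carboxypeptidase N, differed by 7.09, and Kng1, kininogen, by 5.47. Mb, the oxygen store myoglobin, read 12.51, 12.39 and 13.03 in BAT and 5.82, 5.97 and 6.17 in mWAT, a difference of 6.66. Perm1, a regulator of oxidative genes in muscle, differed by 5.60 and Fbp2, the muscle fructose bisphosphatase, by 5.41. Pank1, which makes the first step of coenzyme A synthesis, differed by 5.65 and Elovl3, a fatty acid elongase, by 5.35. Cyp2b10 (7.08), Plet1os (6.50), Lgr6 (5.98), Serpina12 (5.76) and Fer1l6 (5.35) complete the 15. The 15 were taken only from called probe sets on which the arrays of the groups did not overlap. That the BAT arrays lay above every mWAT array on all 15 was thus set by the selection. Mb was high on all BAT arrays and lowest of them on array 2, where the mean of the skeletal muscle genes was highest. The part of muscle in the Mb values was not tested.

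The 15 furthest below mWAT held neuronal, mesothelial, mesenchymal and B cell genes. Gpr85, a brain-expressed receptor, read 3.44, 3.27 and 2.82 in BAT and 9.81, 9.51 and 10.60 in mWAT, a difference of 6.80 in favour of mWAT (SE 0.39, adjusted p = 2.1e-08). The kappa light chain gene segments Igk-V21 and Igkv9-120 were higher in mWAT by 6.67 and 6.49, but read 8.65 and 7.94 on mWAT array 3 against 11.24 or more and 10.54 or more on the other mWAT arrays. Such segments are alike in sequence, and their probe sets may share signal. Bnc1, a mesothelial zinc finger gene, was higher in mWAT by 6.46, Upk3b by 6.29 on its second probe set and Slpi, a secreted protease inhibitor, by 5.81. Rims1 (6.23), Scg2 (5.93), Vip (5.92), Tac1 (5.86), Mapk10 (5.84) and Snap25 (5.74) are genes of synapses and neuropeptides. Bcl11a (6.12), Isl1 (6.06) and Foxf1 (5.97) encode transcription factors, of B cells and neurons, of autonomic neurons and of gut mesenchyme. These 15 were selected in the same way, so their groups did not overlap by selection. Apart from both light chain segments and Bcl11a they read highest on mWAT array 3.

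**Figure D1:**
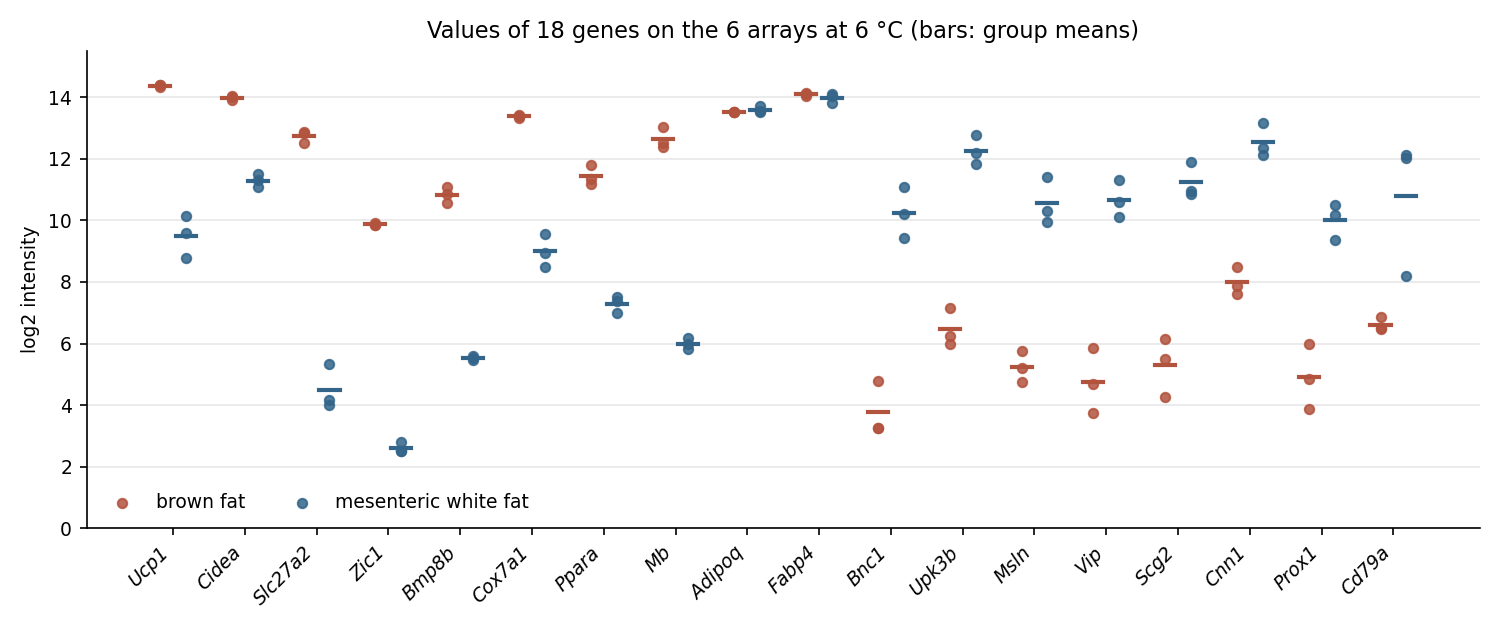
Log2 intensity (y axis) of 18 genes (x axis) on each of the 3 brown fat (red) and 3 mesenteric white fat (blue) arrays at 6 °C, with bars at the group means. Adipoq and Fabp4 overlap between the depots, Ucp1 to Mb lie higher in brown fat, Bnc1 to Prox1 lie higher in mesenteric fat, and Cd79a is split between 12.10, 12.03 and 8.18 on the mesenteric arrays.

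All 29 measured genes of thermogenesis and the brown adipocyte, of 32 listed, were higher in BAT, with a median log2 difference of 3.25, where 21.3% of all genes were higher and 18.9% lower. Ucp1, the uncoupling protein itself, differed by 4.87 (SE 0.29, adjusted p = 2.7e-08), 29.2-fold, with BAT near the highest reading of any array, 14.59. Cidea, a lipid droplet protein, read 14.03, 13.99 and 13.91 in BAT and 11.07, 11.30 and 11.50 in mWAT, a difference of 2.69. Dio2, which converts thyroxine to active thyroid hormone, read 12.27, 12.54 and 12.56 in BAT and was uneven in mWAT, at 8.79, 9.58 and 10.64. Letm1, a mitochondrial cation exchange protein, differed by 2.53, Rgs7, a brake on G protein signalling, by 3.04, and Ffar4, a long chain fatty acid receptor, by 3.84. Nrg4, a neuregulin, differed less, at 12.89, 12.92 and 12.89 in BAT and 11.72, 11.62 and 11.72 in mWAT (1.22, SE 0.17). Leaving out any 1 array of either group left 28 or 29 members higher. The list was put together from genes already tied to brown fat, and its count is no independent evidence.

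Transcription factors of brown fat were more often higher than lower in BAT, and most of those of visceral mesoderm were lower. Of 13 measured brown fat factors 7 were higher in BAT and 3 lower, with a median of 1.54. These are 53.8% and 23.1%, beside 21.3% and 18.9% of all genes, so the lower share was near that of all genes. Beside Zic1, Tbx15 read 6.97, 7.67 and 7.62 in BAT and 4.24 to 4.45 in mWAT, and Ebf2, a factor of brown precursors, 10.78, 11.23 and 10.77 against 8.46 to 8.97. Lhx8, another interscapular factor, differed by 2.01, with mWAT array 3 at 6.56 below the other mWAT arrays at 8.52 and 8.63. In a limma fit of only the arrays compared, Lhx8 missed the threshold (adjusted p = 0.028). Ppargc1b, a coactivator of oxidative genes, differed by 2.64. Eya1, named in brown fat but also used in other tissues, went the other way, at 4.16, 5.02 and 3.38 in BAT and 6.36, 6.96 and 7.25 in mWAT.

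Of 12 factors of visceral mesoderm 8 were lower in BAT and none higher, with a median of -1.93. Foxf1, which patterns gut mesenchyme, read 5.55, 5.51 and 5.34 in BAT and 11.31, 11.18 and 11.82 in mWAT. Tcf21, a factor of visceral mesenchyme, was higher in mWAT by 5.02 and Wt1, a factor of mesothelium and visceral fat precursors, by 4.22. Hand2, a factor of gut neurons and mesenchyme, was higher in mWAT by 2.02. Foxf1 was below the array medians on all BAT arrays, as were Tcf21 and Wt1. The Hox genes, which mark position along the body axis, were called about as often as other genes: of 33 measured 6 were higher in BAT and 8 lower, 18.2% and 24.2% beside 21.3% and 18.9%, with a median of 0.08 beside 0.10 over all genes. Hoxa4, an anterior member, read 10.00, 10.12 and 10.03 in BAT and 7.67, 7.84 and 8.55 in mWAT. The posterior Hoxd10 read 3.92, 3.38 and 3.15 in BAT and 8.79, 8.50 and 6.76 in mWAT, and Hoxc8 and Hoxb5 were higher in mWAT by 1.95 and 2.34.

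The mitochondrial program was higher in BAT from fatty acid entry to the electron chain, by smaller amounts. Of 21 measured fatty acid oxidation genes 20 were higher in BAT (median 1.44), led by Hadha, the trifunctional protein that cuts long acyl chains, at 13.47, 13.40 and 13.41 in BAT and 11.17, 11.36 and 11.65 in mWAT. Acads and Acadm, the short and medium chain dehydrogenases, differed by 1.95 and 1.44. The exception was Cpt1a, the liver form of the enzyme that commits acyl chains to mitochondria, which read 8.53, 8.48 and 8.59 in BAT and 9.76, 9.79 and 9.86 in mWAT (adjusted p = 0.00030) and was named after its value was seen. Of 22 citrate cycle genes 21 were higher (median 1.19). Pdhx, a pyruvate dehydrogenase subunit, differed by 2.21 and Ogdh and Dlst of the oxoglutarate dehydrogenase by 1.91 and 1.68, while Cs, citrate synthase, averaged 13.99 in BAT, with its 3 arrays close together, against 13.54, 13.40 and 13.68 in mWAT, a difference of 0.45. The lower one, Pcx, which feeds the cycle from pyruvate, read 12.66, 12.81 and 12.52 in BAT and 13.06, 13.06 and 13.41 in mWAT (adjusted p = 0.0075), and no member was called lower when any 1 of the 6 arrays but BAT array 2 was left out.

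The respiratory complexes were higher to different degrees. Of complex I 32 of 33 subunits were higher in BAT (median 0.71), with Ndufs4 and Ndufa10 at 1.58 and 1.48. Of complex III with cytochrome c 9 of 10 were higher (median 1.01), led by Uqcrc1 at 13.71, 13.66 and 13.67 against 11.86, 11.94 and 12.16. Of complex IV 10 of 15 were higher (median 0.55), and the list was led by 2 subunit forms of heart and brown fat: Cox7a1 read 13.38, 13.33 and 13.41 in BAT and 8.47, 8.93 and 9.57 in mWAT, a difference of 4.38, and Cox8b differed by 2.14. The ATP synthase stood lowest: 9 of 16 subunits were higher and 2 lower (median 0.43). Atp5g1, which encodes the c subunit of the proton ring, read 10.20, 10.61 and 10.07 in BAT and 12.56, 12.61 and 12.85 in mWAT, a 5.20-fold lower level in BAT (adjusted p = 2.5e-06), on both of its probe sets. Atpif1, the inhibitor of the synthase, was higher in mWAT by 1.24 on all 3 of its probe sets.

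Genes that build the chain were higher as well. Of 11 coenzyme Q synthesis genes 9 were higher in BAT (median 1.51), with Coq6 and Coq10a at 2.17 and 2.15. Of 68 mitochondrial ribosomal proteins 63 were higher and 1 lower (median 1.06), the lower one no longer called when BAT array 1, 2 or 3, mWAT array 1 or 2 or 1 of several arrays of the other groups was left out. Mrps27 had the largest difference of the list, at 10.61, 10.60 and 10.72 against 8.39, 8.12 and 8.64. Tfam, which packs mitochondrial DNA, differed by 1.10, Tfb1m by 1.41 and Lrpprc, which stabilizes mitochondrial mRNA, by 1.67. Among the regulators, Esrra, an orphan receptor of oxidative genes, differed by 2.38 and Ppargc1a, the gene of PGC-1α, by 2.03, with mWAT array 3 at 9.99 above the other mWAT arrays at 8.95 and 8.79. Of 20 branched-chain amino acid degradation genes 15 were higher (median 1.14), among them Bckdha and Dbt of the branched-chain dehydrogenase at 2.06 and 2.03. Bcat2, the transaminase before it, read 11.96, 12.18 and 12.34 against 12.67, 12.25 and 12.39. Of 25 peroxisomal genes 21 were higher (median 0.93) and 1 lower, the latter not without BAT array 1 or 3 or mWAT array 1 or 3. Of 31 proteasome genes 8 were higher, 25.8% beside 21.3% of all genes, with a median of 0.21. That count rested on the setting: it was 20 with each array centred on its median, 13 with the probe sets of a gene averaged, and 5 without any 1 of BAT arrays 1, 2 and 3 or mWAT arrays 1 and 2.

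**Figure D2:**
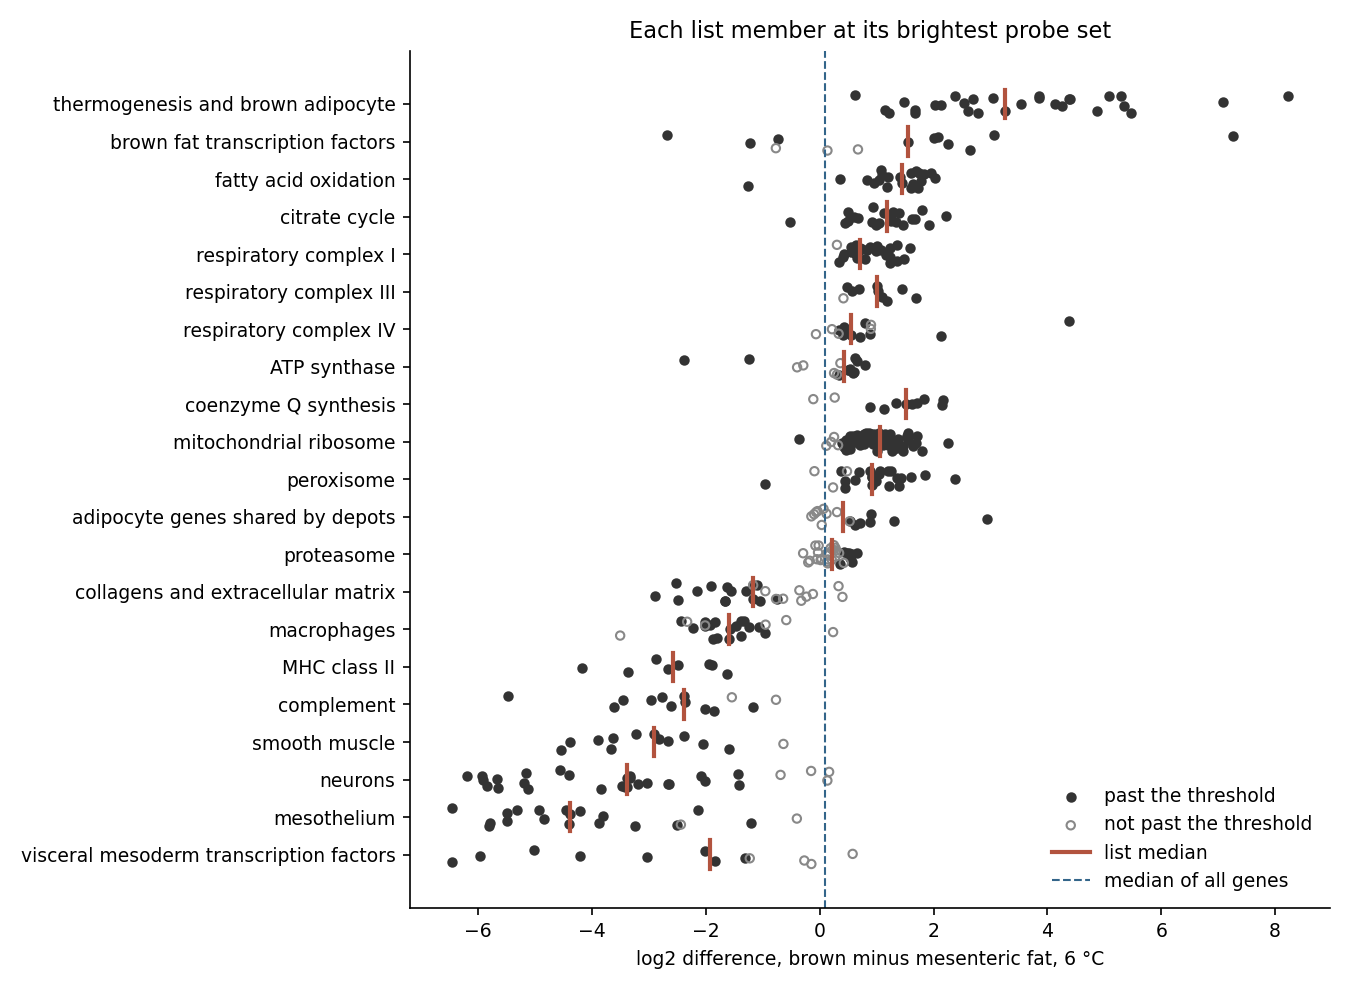
Log2 difference, brown minus mesenteric fat at 6 °C (x axis), of each measured member of 21 gene lists (y axis), filled where past the threshold and open where not, with a bar at the list median and a dashed line at the median of all genes, 0.10. The lists of oxidation and respiration have medians between 0.43 and 1.51, and the neuronal and mesothelial lists spread far below it.

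Promoters of these genes were read from RefSeq (build GRCm38.p6, 250 bases before to 50 bases after each start) and searched on both strands for 7 motifs. The motif of NRF-1, a factor of nuclear genes for mitochondria, GCGCANGCG, was in 6.25% of all 32851 promoters and in 25.0% of the 124 promoters of the oxidation and respiration lists above. It was also in 22.2% of proteasome promoters. The cAMP response element TGACGTCA was in 1.79% of all promoters and in 6.45% of those 124, which is 8 promoters of 6 genes. It was also in 11.5% of the 26 promoters of the neuronal genes, a list lower in BAT. The estrogen-related receptor element TCAAGGTCA was in 0.423% of all promoters and in 1.61% of those 124, which is only 2 promoters of 2 genes. It contains the half-site AGGTCA, found in 16.3% and 21.8%. The SP1 motif GGGCGG was in 35.7% of all promoters and 51.6% of the 124, the ETS motif CCGGAAGT in 3.89% and 6.45%, and the PU.1 motif GAGGAAGT in 3.20% and 3.23%. These shares are descriptions, and several promoters belong to 1 gene.

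Stretches before 6 starts are printed, 5′ to 3′ along the gene, to show how the letters stand in genes that were higher in BAT and in genes that were lower. The first 3 are of the respiratory chain and the fourth makes thyroid hormone active in BAT, all higher there, and the last 2 encode secretory granule proteins of neurons, both lower there. Capitals mark every match of GCGCANGCG and TGACGTCA, on either strand. The stretches lie just upstream of the annotated starts, at Ndufb4 chr16:37654369-37654568 (minus strand), Sdha chr13:74350241-74350360 (minus strand), Cycs chr6:50566570-50566749 (minus strand), Dio2 chr12:90739039-90739158 (minus strand), Scg2 chr1:79440027-79440146 (minus strand), Chgb chr2:132781522-132781641 (plus strand).
Ndufb4: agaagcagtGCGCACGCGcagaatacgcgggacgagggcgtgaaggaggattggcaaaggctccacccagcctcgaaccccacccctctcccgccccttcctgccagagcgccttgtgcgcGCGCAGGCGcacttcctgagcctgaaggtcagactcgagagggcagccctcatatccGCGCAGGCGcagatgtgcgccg
Sdha: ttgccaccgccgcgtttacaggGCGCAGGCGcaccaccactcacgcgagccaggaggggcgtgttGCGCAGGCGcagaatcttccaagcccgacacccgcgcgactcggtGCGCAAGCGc
Cycs: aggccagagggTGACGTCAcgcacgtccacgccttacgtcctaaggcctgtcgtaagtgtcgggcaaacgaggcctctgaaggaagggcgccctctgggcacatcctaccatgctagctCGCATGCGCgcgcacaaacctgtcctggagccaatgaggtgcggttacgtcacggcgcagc
Dio2: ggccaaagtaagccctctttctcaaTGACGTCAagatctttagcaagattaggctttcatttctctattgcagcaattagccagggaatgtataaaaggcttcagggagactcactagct
Scg2: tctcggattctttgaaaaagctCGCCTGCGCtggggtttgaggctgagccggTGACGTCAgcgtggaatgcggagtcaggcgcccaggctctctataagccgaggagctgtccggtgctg
Chgb: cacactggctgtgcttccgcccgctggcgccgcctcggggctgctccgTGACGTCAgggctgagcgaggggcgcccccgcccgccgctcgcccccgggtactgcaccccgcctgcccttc
Ndufb4 and Sdha held 3 matches of GCGCANGCG each, Cycs and Scg2 1 match of each motif, and Dio2 and Chgb 1 of TGACGTCA. TGACGTCA began 95 bases before the start of Dio2, which was higher in BAT by 2.79, and 68 bases before that of Scg2, which was lower by 5.93, so the element stood on both sides of the comparison, as GCGCANGCG did in Cycs and Scg2.

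Of 20 fatty acid synthesis genes 4 were higher in BAT and 4 lower, shares near the 21.3% and 18.9% of all genes, with a median of 0.15. The higher count was 8 with each array centred on its median, 10 with probe sets averaged, and 2 without BAT array 3 or mWAT array 2. Fasn, fatty acid synthase, read 14.23, 14.17 and 14.17 in BAT and 13.88, 13.77 and 13.97 in mWAT, a difference of 0.31 that missed the threshold (adjusted p = 0.018). The desaturases Fads1 and Fads2 were higher in mWAT by 1.62 and 1.66. Of 16 triglyceride synthesis genes 9 were higher in BAT and 2 lower (median 0.77). Aqp7, the glycerol channel, differed by 2.84 and Gpat4 by 2.25, while Mogat2, the gut-type monoacylglycerol acyltransferase, was higher in mWAT by 2.63.

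Of 17 genes of lipolysis and the lipid droplet 9 were higher in BAT and none lower (median 0.86). Plin5, which ties droplets to mitochondria, read 12.70, 12.57 and 12.64 in BAT and 9.03, 8.99 and 9.28 in mWAT. The lipases Lipe and Pnpla2 differed by 0.90 and 0.88. Of 19 genes of lipid uptake and activation 9 were higher and 3 lower, and 1 was lower without BAT array 3. Lpl, which frees fatty acids from lipoproteins, read 14.08, 14.12 and 14.05 against 13.71, 13.72 and 13.91 and missed the threshold, while Gpihbp1, which holds it on capillaries, differed by 1.83 and Vldlr, a lipoprotein receptor, by 2.32. Fabp3, the muscle fatty acid binding protein, read 14.21, 14.16 and 14.18 in BAT and 9.75, 9.98 and 10.07 in mWAT, 19.0-fold, beside Fabp4 at 14.14, 14.10 and 14.04 against 14.05, 13.79 and 14.09. Of 23 glucose uptake and glycolysis genes 19 were higher in BAT and 2 lower (median 0.89), among them the phosphofructokinase Pfkl at 2.37 and the glycogen synthase Gys2 at 2.17. Slc2a1, the basal glucose transporter, was higher in mWAT by 0.73.

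Creatine and calcium cycling, named as heat routes without UCP1, leaned to mWAT. Of 14 measured genes 7 were lower in BAT and 1 higher, 50% and 7.14% beside 18.9% and 21.3% of all genes. The lower count was at least 5 without any 1 array of either group, and 3 in a fit of only the arrays compared. Alpl, a phosphatase that acts on phosphocreatine in thermogenic fat, was the higher one, at 11.40, 11.12 and 11.75 against 8.02, 7.87 and 8.41. Ckb, cytosolic creatine kinase, was higher in mWAT by 1.22, Ckmt1, a mitochondrial creatine kinase, by 3.48, and Gatm, of creatine synthesis, by 2.24. In the fit of only the arrays compared, Ckb and Gatm missed the threshold (adjusted p = 0.0103 and 0.0182). Several of the lower members, Ryr3 among them (2.79), are known from neurons and smooth muscle, whose lists were also higher in mWAT. The part of those tissues in this count was not tested.

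The receptors and signals that drive BAT were higher in part. Of 22 adrenergic and cAMP genes 11 were higher in BAT and 3 lower (median 0.57). The adenylyl cyclases went apart: Adcy3 read 12.70, 12.68 and 12.85 in BAT and 10.00, 10.02 and 10.41 in mWAT, whereas Adcy5 read 8.54, 8.39 and 7.49 in BAT and 11.64, 11.63 and 12.26 in mWAT. Of 21 thyroid and nuclear receptor genes 9 were higher and 2 lower (median 0.87). Ppara, the fatty acid sensing receptor, differed by 4.13 and Esrrg, an estrogen-related receptor, by 3.25, while Thra, the main thyroid hormone receptor, read 10.99, 10.75 and 10.61 against 10.01, 10.30 and 10.99. Pgr, the progesterone receptor, was higher in mWAT by 3.27, and by 1.16 with its probe sets averaged, which missed the threshold (adjusted p = 0.0114).

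Single secreted factors differed in both directions. Bmp8b read 10.84, 10.57 and 11.08 in BAT and 5.53, 5.60 and 5.46 in mWAT on its brighter probe set, a difference of 5.30. Vegfa, the main endothelial growth factor, differed by 2.07, with 11.95, 11.99 and 11.95 in BAT. Cxcl14, a chemokine released by brown fat, read 13.50, 13.68 and 13.74 in BAT and 9.61, 9.58 and 10.36 in mWAT. Of 30 growth factor genes 14 were lower in BAT and 4 higher, 46.7% and 13.3% beside 18.9% and 21.3% of all genes. Bmp4, of white adipocyte commitment, was higher in mWAT by 2.99, Gdf10 by 2.99, Igfbp4 by 2.37 and Bmp2 by 1.30. Igf1 read 9.84, 10.56 and 9.48 in BAT and 11.93, 12.21 and 12.36 in mWAT.

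Of 19 measured genes of adipokines and white adipocytes 5 were higher in BAT and 4 lower, 26.3% and 21.1% beside 21.3% and 18.9% of all genes, and 9 were higher with each array centred on its median. Serpina12, vaspin, read 11.81, 11.78 and 11.69 in BAT and 5.84, 6.27 and 5.87 in mWAT. Npr3, which clears natriuretic peptides, differed by 2.40. Retn, resistin, was higher in mWAT by 1.40 and Lcn2, lipocalin 2, by 3.80. Lep, the leptin gene, was spread within both depots, at 8.57, 10.55 and 9.92 in BAT and 10.47, 8.93 and 11.19 in mWAT, and the groups overlapped (adjusted p = 0.48). Nnat, which is imprinted, read 8.88, 9.50 and 8.16 against 9.42, 9.35 and 10.72 (adjusted p = 0.18). Nrip1, a corepressor of oxidative genes, read 9.75, 10.33 and 9.30 in BAT and 10.96, 11.05 and 11.27 in mWAT, higher in mWAT by 1.30.

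Mesothelium, smooth muscle and neuronal genes, of tissues that lie around or run through the mesentery, were lower in BAT. Of 20 mesothelium genes 18 were lower in BAT and none higher, with a median of -4.40. Msln, mesothelin, read 5.75, 4.76 and 5.20 in BAT and 10.31, 9.96 and 11.39 in mWAT, and Muc16, a mucin of serosal surfaces, was higher in mWAT by 5.49. Of 13 smooth muscle genes 12 were lower in BAT (median -2.92): Myh11, smooth muscle myosin, read 10.48, 10.10 and 9.80 in BAT and 13.77, 13.50 and 14.01 in mWAT, and Cnn1, calponin, was higher in mWAT by 4.55. These groups did not overlap.

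Of 30 neuronal genes 26 were lower in BAT and none higher (median -3.38). The neuropeptide genes Vip and Tac1 read 10.12 to 11.30 and 9.86 to 11.51 in mWAT and no more than 5.85 and 5.97 in BAT. The lists of neurons, mesothelium and smooth muscle all had their highest array mean on mWAT array 3, at 9.75, 10.85 and 13.04. Without that array, 26, 19 and 12 members were lower in BAT.

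Of 23 endothelial and vessel growth genes 11 were higher in BAT and 6 lower, and 6 were higher without both arrays of high pancreas genes. Cdh5, the cadherin of all endothelium, differed by 1.47, and Pecam1, another, read 10.09, 10.03 and 9.96 in BAT and 9.75, 9.99 and 9.67 in mWAT. Among the lower ones were Prox1, Lyve1 and Vegfd, named after their values were seen. Prox1, the lymphatic identity factor, read 5.97, 4.85 and 3.88 in BAT and 10.17, 10.48 and 9.36 in mWAT, and Lyve1, a hyaluronan receptor of lymphatics and some macrophages, 7.73, 8.21 and 8.10 against 11.18, 11.36 and 10.79. Vegfd, which drives lymphatic growth, was higher in mWAT by 2.57. Of 25 collagen and matrix genes 15 were lower in BAT and none higher (median -1.17), with Dcn, decorin, at 11.45, 11.73 and 11.18 in BAT and 13.59, 13.39 and 13.84 in mWAT. Fn1, fibronectin, was higher in mWAT by 2.52 and Col14a1 by 2.90.

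Immune genes were higher in mWAT, and the lymphocyte part rested on which mWAT array was read. Of 23 macrophage genes 17 were lower in BAT (median -1.60): Csf1r, the receptor for the macrophage growth factor, read 10.62, 10.78 and 10.28 in BAT and 13.01, 13.04 and 12.29 in mWAT, and Adgre1, the F4/80 antigen, was higher in mWAT by 1.84. All 8 measured class II genes were lower in BAT (median -2.58), among them H2-Ab1 by 2.49, and 11 of 13 complement genes (median -2.39), among them Cfb, complement factor B, at 7.68, 7.96 and 7.67 against 11.59, 11.13 and 10.95. The mean of the class II genes was 12.34, 12.36 and 10.53 on mWAT arrays 1 to 3, against 8.77 to 9.39 on the BAT arrays. Of 10 genes of the immunoproteasome and antigen processing 9 were lower, and 4 in a fit of only the arrays compared. Their mean was 12.66, 12.57 and 11.80 on mWAT arrays 1 to 3, against 10.94 to 11.12 on the BAT arrays. Il33, an alarmin of stromal cells, read 7.33 ± 0.71 (SD, n = 3) in BAT and 11.44, 11.10 and 10.89 in mWAT.

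Of 17 B cell genes 11 were lower in BAT (median -3.79). Ms4a1, the CD20 gene, read 5.30, 6.21 and 5.94 in BAT and 11.74, 11.79 and 8.31 in mWAT. Of 19 T cell genes 2 were lower (median -3.42): Cd3d, of the T cell receptor complex, read 6.34, 6.46 and 6.33 in BAT and 11.88, 12.11 and 7.10 in mWAT and missed the threshold (adjusted p = 0.015). Glycam1, made by the high endothelial venules of lymph nodes, read 13.47 and 13.52 on mWAT arrays 1 and 2 and 5.75 on array 3, below BAT at 6.34 to 8.33, and was not called (adjusted p = 0.18). Without mWAT array 3, 18 T cell genes and 15 B cell genes were lower in BAT, and 12 of 29 cell cycle genes in place of 1. Without mWAT array 1, mWAT array 2 or BAT array 1 the B cell count was 5, and 7 without BAT array 3. Without mWAT array 3 of 28 °C, which only shares the error estimate, 12 T cell genes and 7 cell cycle genes were lower. Cd79a, of the B cell receptor, had an adjusted p of 0.0047, and of 0.0118 to 0.027 without any 1 of BAT arrays 1, 2 and 3 and mWAT arrays 1 and 2.

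**Figure D3:**
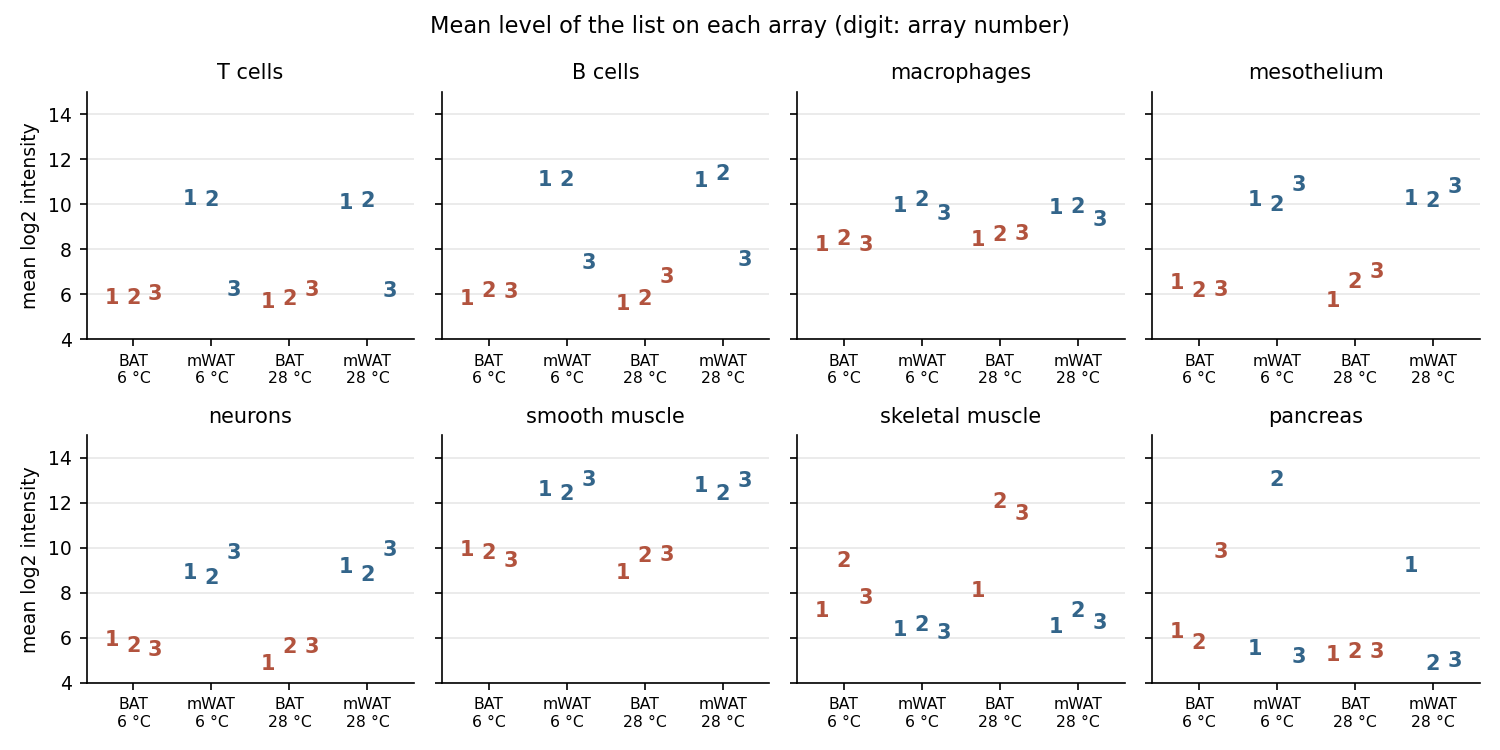
Mean log2 intensity (y axis) of 8 cell type lists on each array of BAT (red) and mWAT (blue) at both temperatures (x axis), each digit marking the array of that number. The T cell list is near 10 on mWAT arrays 1 and 2 and near 6 on array 3 at both temperatures, and the pancreas list reaches 13.04 on 1 mWAT array at 6 °C.

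Pancreas genes were high on single arrays, and skeletal muscle genes were uneven among the BAT arrays. None of 15 pancreas genes was called: Cpa1, a pancreatic carboxypeptidase, read 14.06 on mWAT array 2 and 10.27 on BAT array 3 against 4.84 to 6.38 on the others. Of 24 skeletal muscle genes only Mb was called, though 18 had a higher mean in BAT and the list median was 2.01. Myh4, a fast muscle myosin, read 7.43, 10.49 and 8.03 in BAT and 3.74, 5.41 and 3.88 in mWAT (adjusted p = 0.050), and Ckm, muscle creatine kinase, read 6.44, 9.02 and 7.20 against 8.76, 8.60 and 10.23. With both arrays of high pancreas genes left out, 27 of the 29 thermogenic genes and 18 of the 20 mesothelium genes were still called in the direction given, 2 B cell genes and 1 T cell gene were lower, and the mitochondrial ribosome count was 53. Other counts of genes higher in BAT then moved by over 1.5 times. Among them were complex IV from 10 to 6, the proteasome from 8 to 2, fatty acid synthesis from 4 to 1 and the Hox genes from 6 to 3. The endothelial and vessel growth count went from 11 to 6, the heme count from 5 to 3 and the clock count from 4 to 1. The part of these tissues in other results was not tested.

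The same comparison at 28 °C, on 6 other arrays of the same fit, called 7109 probe sets higher in BAT and 5121 lower. Of the probe sets higher in BAT at 6 °C, 57.7% were also called higher at 28 °C, and these made up 74.4% of those higher at 28 °C; for the lower ones the shares were 62.7% and 81.5%. At 28 °C 17.7% of genes were called higher and 14.8% lower. All 29 thermogenic genes were again higher (median 2.49), as were 20 of 21 fatty acid oxidation genes (1.47) and 33 of 33 complex I subunits (0.73), and 18 of 20 mesothelium genes (-4.69) and 27 of 30 neuronal genes (-3.85) were lower. The cholesterol synthesis genes were higher in 4 of 16 cases at 6 °C (median 0.42), 25.0% beside 21.3% of all genes, and in 1 at 28 °C (-0.30). The 6 °C count was 8 without mWAT array 3 and 10 with each array centred on its median.

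Whether the depot difference itself differed between 6 °C and 28 °C was tested as the difference of both contrasts, which passed the threshold at 262 probe sets, 0.582%, 164 of them upward. Of the 29 thermogenic genes 3 passed, Ucp1, Bmp8b and Ffar4, beside 0.566% of all genes. The paper had picked Bmp8b and Ffar4, there named Gpr120, from these same arrays among genes raised by cold. The count is therefore no independent evidence. Ucp1 read 14.07, 13.99 and 14.02 in BAT at 28 °C and 6.27, 6.76 and 6.39 in mWAT, so the depot difference was 7.55 there and 4.87 at 6 °C, a difference of contrasts of -2.68 (SE 0.42, adjusted p = 0.0045). It had an adjusted p of 0.0115 to 0.0144 when any 1 of 9 of the 12 arrays was left out, all but mWAT arrays 2 and 3 at 6 °C and array 2 at 28 °C. The mWAT level of Ucp1 was higher at 6 °C than at 28 °C on every array, while BAT read between 13.99 and 14.40 at both temperatures. The highest value of any probe set on any array was 14.59, so the BAT readings lay near the top of the scale, and the size of both depot differences and of the change between them is not exact.

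Bmp8b went the other way. The brighter Bmp8b probe set read 7.02, 6.71 and 6.16 in BAT at 28 °C and 5.15, 5.29 and 5.74 in mWAT, and the difference of contrasts was 4.06 (SE 0.40, adjusted p = 0.00030). The uncharacterized transcript 9030619P08Rik read 9.75, 10.07 and 10.61 in BAT at 6 °C and 4.44, 5.12 and 5.57 at 28 °C, with mWAT between 4.82 and 6.48 at both, a difference of contrasts of 4.15. The gap between depots was wider at 6 °C for Ffar4 by 2.19 and for Alpl by 1.90, the latter with an adjusted p of 0.0104 to 0.0118 without 1 of BAT arrays 2 and 3 at 28 °C or mWAT arrays 1 and 2 at 6 °C. Serpina12 widened by 3.76, Ncan by 3.82, Acot12, an acetyl-CoA hydrolase, by 3.25 and 1700061I17Rik by 3.42. Angpt1, a growth factor of vessel walls, read 8.47, 8.60 and 7.87 in BAT and 8.05, 8.19 and 8.37 in mWAT at 6 °C, where the groups overlapped, and 10.77, 10.46 and 10.18 against 6.97 to 8.03 at 28 °C. Rab17, a small GTPase of polarized cells, was lower in BAT at 6 °C and higher in BAT at 28 °C, with a difference of contrasts of -3.97. The mean of the skeletal muscle genes was 12.04 and 11.49 on BAT arrays 2 and 3 at 28 °C, above the 9.40 of the highest BAT array at 6 °C, and its part in these differences was not tested. Without those arrays and BAT array 2 at 6 °C, 10 probe sets passed. Of the genes of these paragraphs Acot12 (adjusted p = 0.0058) and the second probe set of Bmp8b (0.0045) were among them, and the others were not, from 0.0137 for 9030619P08Rik to 0.108 for Ucp1. The differences themselves kept their sign, at -2.70 for Ucp1, 3.80 for the brighter Bmp8b probe set and 1.72 for Ffar4, with fewer arrays in the fit.

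**Figure D4:**
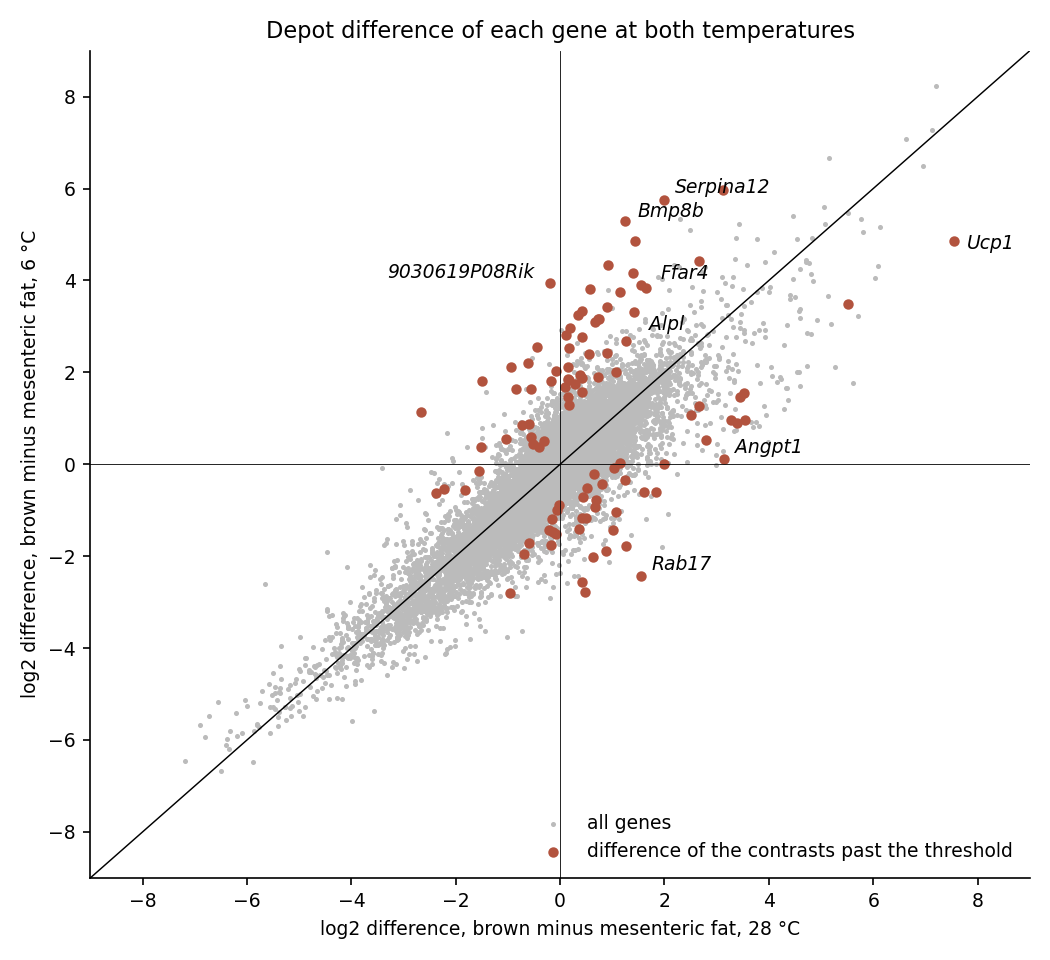
Log2 difference between brown and mesenteric fat of each gene at 28 °C (x axis) and at 6 °C (y axis), with genes whose differences at the 2 temperatures differ past the threshold marked in colour and the line of equal difference in black. Ucp1 lies below the line at 7.55 and 4.87, Bmp8b above it at 1.24 and 5.30, and most genes lie close to the line.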

How the data were processed

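The authors hybridized amplified RNA of whole tissue to Affymetrix mouse arrays and processed the scans with Bioconductor packages (background adjustment, summarization and normalization, with no algorithm named in the sources used here, where the array type is named in different ways). The deposited value table holds linear intensities with no detection calls, and their log2 was taken here. Control probe sets were left out, and 45037 probe sets remained. Genes were named from the platform annotation, and a gene counts once, by its probe set of highest mean. All 18 arrays were fitted in R 4.3.3 with limma 3.58.1 (lmFit, eBayes, 6 group means, 12 residual degrees of freedom), and the contrasts were BAT less mWAT at 6 °C, the same at 28 °C, and their difference. P-values were adjusted by Benjamini-Hochberg over all probe sets, with a threshold of 0.01. The number of arrays limits the precision. The method was tested on simulated data. The genes named are those of largest change and fixed list members, and others are said to be chosen by value. Members and lists were chosen with earlier results of these data known. Promoters came from RefSeq (GRCm38.p6).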

Additional observations from a re-analysis of the deposited data

Results flagged for a closer look

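The depot difference itself differed between 6 °C and 28 °C at 262 probe sets, by the limma test of the difference of both contrasts. The values that follow are BAT minus mWAT at 6 °C less the same at 28 °C, on the log2 scale, for the named genes past the threshold.

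The largest positive values were 4.86 and 4.06 on the probe sets of Bmp8b, 4.15 for 9030619P08Rik, 3.82 for Ncan, a matrix proteoglycan, 3.81 for Rims2, of the presynaptic release site, and 3.76 for Serpina12. A dim probe set of Cycs gave 3.53, where its brightest had depot differences of 1.19 at 6 °C and 1.33 at 28 °C. Next came 1700061I17Rik at 3.42, Ccdc184 at 3.31, a probe set of Ddo, D-aspartate oxidase, at 3.28, and Acot12 at 3.25. Lgr6, a receptor for R-spondins, gave 2.85, Ffar4 2.19, Alpl 1.90 and Fdps, of cholesterol synthesis, 1.47, which was 0.72 with probe sets averaged (adjusted p = 0.0279).

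The largest negative values were -4.02 for B3galt2, a glycosyltransferase, -3.97 for Rab17, -3.34 for St6galnac5, a sialyltransferase, and -3.25 for Snhg11. Pon1, paraoxonase, gave -3.04, Angpt1 -3.03, D630004K10Rik -2.98 and Car3, the carbonic anhydrase of fat and muscle, -2.89. Ivns1abp gave -2.86, Slc16a7, a monocarboxylate transporter, -2.75 and Ucp1 -2.68. Of these 26 values 8 missed the threshold when 1 or more single arrays of the 18 were left out. Lgr6 did so for 15 of the 18 (adjusted p 0.0108 to 0.0266), Pon1 for 15 (up to 0.0225), St6galnac5 for 11 (0.0119 to 0.0246), Ucp1 for 9, B3galt2, Snhg11 and Ivns1abp for 8 each, and Alpl for 4. Without the 3 BAT arrays of high muscle genes 23 of the 26 missed it, and 21 without both 6 °C arrays of high pancreas genes. The skeletal muscle genes were high on BAT arrays 2 and 3 at 28 °C, and their part in these values was not tested.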

How the results depend on the processing

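Counts here are probe sets past the threshold. Against 15833 at 6 °C, 12230 at 28 °C and 262 for the difference between temperatures, a 2-fold minimum left 9650 (4896 higher in BAT) and 7576. A fit of only the arrays compared gave 9459 (5628 higher, 3831 lower), 7462 and 40, and averaging the probe sets of a gene, which leaves fewer features, gave 7538 (4560 higher, 2978 lower), 6033 and 156. The difference count was 1063 at an adjusted p of 0.05, 405 with a variance trend and robust estimates and 440 with a pseudocount of 16, and the cause was not tested. Leaving out 1 array gave 12613 to 16618 probe sets at 6 °C and 95 to 369 for the difference, lowest without BAT array 3 at either temperature. Other settings were chosen after seeing the data. Without both 6 °C arrays of high pancreas genes, 6028 were higher in BAT at 6 °C and 18 passed for the difference. Without the 3 BAT arrays of high muscle genes, 6044 were called at 28 °C and 10 for the difference. Without both mWAT arrays 3 the count at 6 °C was 17627.

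The values that changed sign were of genes that were not called, or of a single probe set. Adipoq was 0.13 with arrays centred on their medians and 0.00048 without both mWAT arrays 3, and ranged from -0.10 to 0.00048 over arrays left out. Cpa1 was 0.85 without the pancreas arrays and 0.41 without the muscle arrays, and ranged from -2.24 to 2.38, lowest without mWAT array 1 and highest without mWAT array 2. Angpt1 was -0.034 without the muscle arrays and ranged from -0.034 to 0.33. Lep ranged from -1.15 to 0.042, highest without BAT array 1. Ddo, with its probe sets averaged, had a difference between temperatures of -0.030. Averaging the probe sets of a gene also moved called differences at 6 °C by over 1.5 times, among them Adcy5 to -0.85, Eya1 to -0.81 and Mb to 3.83. Some differences called at 6 °C missed the threshold in the limma fit of only the arrays compared. Among them were Hoxc8 (adjusted p = 0.0258), Cs (0.0381), Pcx (0.0459), Nrip1 (0.0117) and Cd79a (0.0209), beside Lhx8, Ckb and Gatm. Fasn and Lpl, which missed the threshold, passed it at 0.51 and 0.50 with arrays centred on their medians. Both also passed with dim probe sets left out, with a variance trend and robust estimates, with probe sets averaged and with a pseudocount of 16. Lpl passed as well with quantile normalization and without mWAT array 3 at 6 °C. No paired analysis was possible because the labels give no replicate numbers.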

Other observations

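Gene groups not described above gave these counts at 6 °C, to be read against 21.3% of all genes higher in BAT and 18.9% lower. Of 16 adipocyte genes common to all fat 7 were higher in BAT and none lower, among them Cebpb, a factor that starts adipogenesis, at 11.58, 11.60 and 11.68 in BAT and 8.50, 8.27 and 9.28 in mWAT, and Pparg, the adipocyte master regulator, by 1.30. Of 28 glutathione and antioxidant genes 11 were higher and 5 lower. Sod2, the mitochondrial superoxide dismutase, differed by 1.55 and Txnrd2, the mitochondrial thioredoxin reductase, by 2.51, while Sod1, the cytosolic enzyme, read 14.22, 14.23 and 14.18 against 14.10, 14.03 and 14.15 (adjusted p = 0.29). Gsta3, a glutathione transferase, was higher in mWAT by 2.99. Of 11 heme genes 5 were higher and none lower, with Alas1, the first enzyme of heme synthesis, at 1.43. The higher count was 3 without both arrays of high pancreas genes, and 3 in a fit of only the arrays compared.

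Of 24 endoplasmic reticulum folding genes 3 were higher and 5 lower, and Xbp1, a factor of secretory cells, was higher in mWAT by 1.62. Of 18 clock genes 4 were higher and none lower, 2 were without BAT array 3 or mWAT array 2, and 1 without both arrays of high pancreas genes. Nfil3, a clock output factor, read 9.74, 9.77 and 9.68 in BAT and 7.95, 8.27 and 8.46 in mWAT. Of 15 interferon response genes 8 were lower, and 4 without BAT array 1 or mWAT array 1. Of 27 chemokine genes 12 were lower, and 19 without mWAT array 3, while Cxcl14 was the 1 that was higher. Of 10 natural killer cell genes 4 were lower, 2 without BAT array 2 or mWAT array 1 or 2, and none without both arrays of high pancreas genes. Of 14 genes of Schwann cells and glia 4 were lower and 1 higher: S100b, also made by adipocytes, read 10.83, 10.88 and 11.27 in BAT and 7.36, 7.10 and 8.17 in mWAT. Of 14 mast cell and type 2 immunity genes Hdc, histidine decarboxylase, was the 1 that was higher, by 1.81.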
